A study of Mus musculus with 2 samples.

Results

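The genes described are 9 transcription factors of early liver development: the zinc finger factors Gata2, Gata3, Gata4 and Gata6, the T-box factor Tbx3, and the leucine zipper factors Cebpa, Cebpb, Cebpd and Cebpg of the C/EBP family. They were found by gene name among the gene probes of an Agilent mouse array, which gave 18 probes of 41158 and 9 genes of 20054 named ones. The RNA came from expandable hepatoblasts, liver progenitor cells of strain C57BL/6. They were cultured on Matrigel or laminin in DMEM/F12 with insulin, transferrin, selenite, a stable ascorbic acid and albumin, plus 10 ng/ml EGF, 3 μM CHIR99021 (a GSK3 inhibitor), 2 μM E-616452 (a TGF-beta receptor inhibitor), 5 μM lysophosphatidic acid, 0.5 μM sphingosine 1-phosphate and 5 mM nicotinamide. Cells at passage 5 and cells at passage 20, taken from independent experiments per the labels, were each read on 1 array. Both groups share strain, tissue and this medium. The labels give neither the age of the donor mice nor which coating each culture had. Passage and experiment cannot be told apart, no test was possible, and each difference below compares these arrays only.

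GATA factors bind the motif they are named for through paired zinc fingers. GATA4 and GATA6 act in the foregut endoderm and are needed for growth of the liver bud, whereas GATA2 and GATA3 are better known from blood, endothelium, lymphocytes and several other epithelia. TBX3 is mostly a repressor, and mouse embryos without it have a poorly expanding liver bud whose hepatoblasts take on bile duct features. C/EBP proteins pair through a leucine zipper. C/EBP alpha drives hepatocyte maturation, C/EBP beta and delta act in the acute phase response, and C/EBP gamma, which lacks a strong activation domain, is a partner of other zipper proteins such as ATF4.

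All values come from probes of 60 bases. Of the 8 C/EBP probes, 3 lie in the part of the messenger RNA that encodes the leucine zipper, the region by which family members pair, and they are shown because each reports a different member. They are written in the array's orientation, with the leucine codons of the frame used in capitals. For Cebpa and Cebpg that frame was the single frame without a stop codon. For Cebpb all 3 frames were free of stops, and the one with the most leucine codons was taken.
Cebpa probe, chr7:35905361-35905420 (mm9, plus strand): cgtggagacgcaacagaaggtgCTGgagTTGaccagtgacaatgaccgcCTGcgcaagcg
Cebpb probe, chr2:167515309-167515368 (mm9, plus strand): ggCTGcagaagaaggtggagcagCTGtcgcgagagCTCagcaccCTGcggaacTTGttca
Cebpg probe, chr7:35835477-35835536 (mm9, minus strand): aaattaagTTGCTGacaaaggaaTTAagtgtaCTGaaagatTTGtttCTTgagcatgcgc
The 60 bases held 3 leucine codons for Cebpa, 5 for Cebpb and 6 for Cebpg. In each of them at least 1 pair lay 7 codons apart, the spacing of a zipper, with 2 such pairs for Cebpb. The other Cebpa probe, not placed in that part, also had 1 such pair, so the spacing alone does not mark a zipper. Of the probes shown, that of Cebpa was above background on neither array and that of Cebpb had nearly equal levels on both. That of Cebpg was slightly dimmer at passage 20 but higher relative to the 75th percentile of its array, as described below.

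At passage 5, 45.5% of gene probes were well above background, and 46.1% were at passage 20. A level is the log2 of a probe's signal minus that of the 75th percentile on its array, which was 1085 at passage 5 and 853 at passage 20. A difference is passage 20 minus passage 5. Where a probe was well above background on 1 array only, the other array gives a limit, and the fold is written as at least N-fold, computed against the higher of the dim probe's own signal and the lowest signal well above background (109 at passage 5, 94.6 at passage 20). A single spot's signal is given with the error of the scanner software's model. Across 91 probes with 10 bright spots each, the SD of a single-spot difference had a median of 0.04 log2 and a 95th percentile of 0.16. Both errors are technical and leave out variation between cultures. The array reads bulk RNA, so fewer cells of a type and less RNA per cell cannot be told apart.

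Among these factors Gata2 was the only one to differ 2-fold, being lower at passage 20, while the other measured factors stayed within 2-fold. Gata2, Gata6, Tbx3, Cebpb, Cebpd and Cebpg passed the software's limit for a signal well above background at 1 passage or both. Gata3, Gata4 and Cebpa passed it at neither. Of the 6 measured members, 1 differed at least 2-fold, against 9.0% of the 11798 measured genes (5.74% lower and 3.26% higher). By probes, 13 of 18 were measured and 2 differed at least 2-fold, both of Gata2, against 10.5% of the 20178 measured gene probes (4.71% lower and 5.77% higher). At 1.5-fold, 4 member probes passed, against 25.4% of measured gene probes. The median difference of the measured members was -0.48 log2, with Gata2 at its bound, against 0.07 over all measured genes. Among them 5 were on the lower side at passage 20 and 1, Cebpg, on the higher side. Counts this small cannot set the group apart from other genes, and the members that were measured are those bright enough on at least 1 array.

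**Figure D1:**
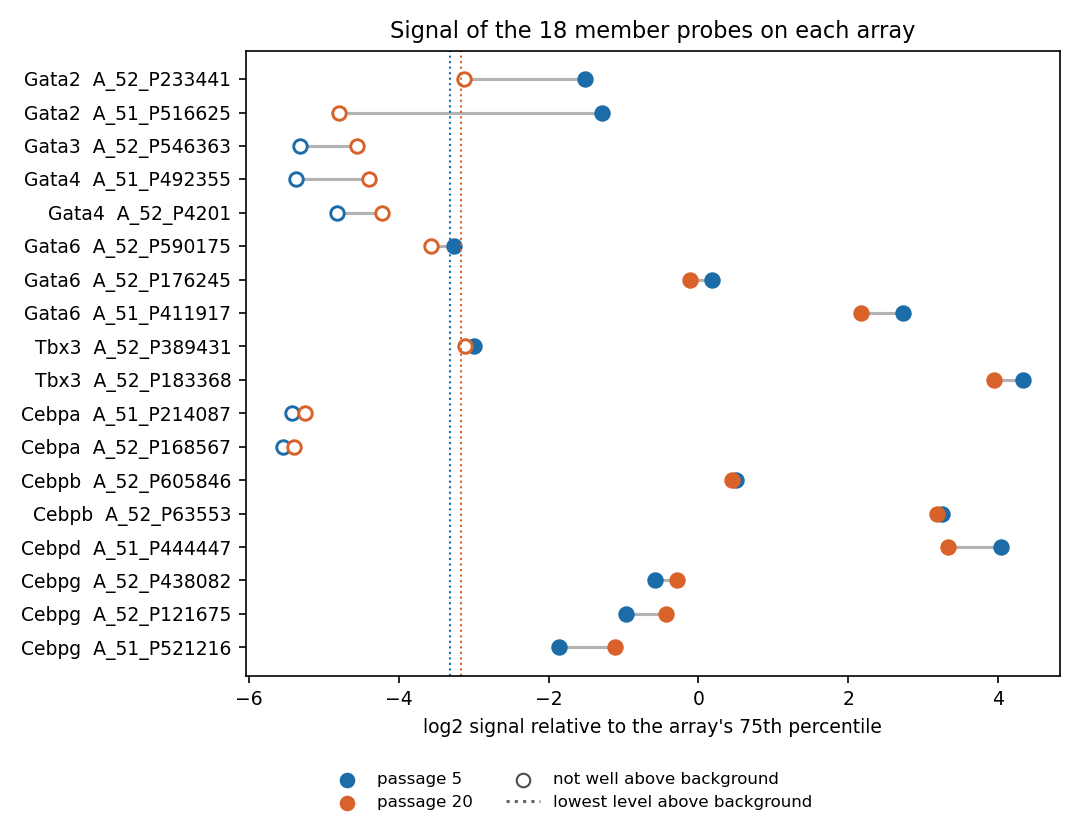
Log2 signal relative to the 75th percentile (x axis) of the 18 member probes (y axis, gene and probe name, ordered along each transcript) at passage 5 (blue) and passage 20 (orange); open circles were not well above background, and dotted lines mark the lowest level that was, -3.32 at passage 5 and -3.17 at passage 20. The Gata2 probes are filled at passage 5 and open at passage 20, the probes of Gata3, Gata4 and Cebpa are open on both arrays, and the Cebpg probes alone are filled on both with passage 20 to the right.

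Gata2, a regulator of blood progenitors, mast cells and endothelium, was well above background at passage 5 by both of its probes and at passage 20 by neither. The probe at chr6:88156362-88156421 (mm9) had a signal of 381 ± 45.2 (model error) at passage 5 and 97.9 ± 23.0 at passage 20. The probe at chr6:88156835-88156894 had 443 ± 52.1 and 30.5 ± 24.3. The passage 20 signals were flagged as positive and significant against background, though not well above it. The first probe is the brighter one over both arrays. Its dim signal lay over the lowest signal well above background, so its 3.06-fold lower is the ratio of the 2 signals. That ratio has a model error of 0.38 log2 and is no strict limit. The second probe gave at least 3.69-fold lower. Of all measured genes, 2.23% had a difference as low as the -1.61 log2 of the first probe or lower. At least 2-fold lower were 5.74%. With normexp background correction the bound of the first probe was -0.87 log2, within 2-fold, and that of the second -1.09. That correction was run with an offset of 50 added to each signal, which makes ratios of dim signals such as these smaller. If both arrays must be above background, Gata2 has no value.

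Markers of the cell types that carry Gata2 were mostly dim. Of 16 endothelial markers 3 were above background at passage 5 and 2 at passage 20, and their summed level, in multiples of the 75th percentile signal, was 3.32 and 2.30. Pecam1, Cdh5, Kdr, Tek and Tie1 were above background on neither array, while Egfl7, a secreted vessel protein that some epithelia also make, was 3.25-fold lower at passage 20. The other measured markers of that list were Flt1, a VEGF receptor gene whose 3 measured probes were between 0.06 and 0.35 log2 higher, and Fcgr2b, with a bound of -0.22. Of 15 blood progenitor and mast cell markers, 3 were above background at passage 5 and 1 at passage 20 (summed levels 1.73 and 1.98), with Kit, Cpa3, Tal1, Gfi1b and Ptprc on neither. The part of such cells in the Gata2 difference was not tested.

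Gata3, which governs T cell fate and several epithelia, had 1 probe, at chr2:9778983-9779042. Its signal was 27.1 ± 27.0 at passage 5, a surrogate value set by the software, and 36.4 ± 23.8 at passage 20. Both lay far under the lowest signal well above background, so no fold is given. Among 14 markers of T cells and innate lymphoid cells 3 were above background on each array (summed levels 0.93 and 1.10), with Cd3d, Cd3g, Cd4, Il7r and Ptprc on neither. The 3 were Cd3e, Tcf7 and Rora, with differences of 0.19, 0.08 and 1.12 log2. Rora was thus 2.17-fold higher at passage 20 by its brightest probe, while its measured probes ran from 0.00 to 1.12 log2.

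Gata4, the partner of Gata6 in liver bud growth, was not detected in these hepatoblasts by either probe. One of them, at chr14:63818147-63818206, was printed 10 times per array, and 0 of 10 spots were well above background at either passage. The spot signals ran from 24.0 to 69.8 with a median of 32.2 at passage 5, and from 35.2 to 78.8 with a median of 43.2 at passage 20. The spots of the passages overlapped, and 8 of 10 at passage 5 and 10 of 10 at passage 20 were flagged as positive and significant. The other probe, of which 22 bases are placed at chr14:63817752-63817773, had 26.1 ± 26.1 and 40.6 ± 23.0. A level under the limit of this array was not detectable, and no direction is read from these signals. Liver stellate cells, which also express Gata4, had 4 of 16 markers above background at passage 5 and 3 at passage 20 (summed levels 124 and 102, mostly from Vim and Acta2, which other cultured cells share), with Lrat, Des, Hand2, Lhx2 and Pdgfrb on neither. The matrix protein gene Dcn of that list had a level of 0.82 at passage 5 and was at least 15.9-fold lower at passage 20, and the 2 measured Acta2 probes differed by -3.11 and -0.10 log2.

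Gata6 was the detected endodermal GATA factor, and it was lower at passage 20 by less than 2-fold. Its 3 probes lie on chromosome 18. The probe nearest the end of the transcript (11085039 to 11085097) gave 7224 ± 723 at passage 5 against 3829 ± 383 at passage 20, a difference of -0.57 log2 with a model error of 0.20, or 1.48-fold lower. The middle probe (11064511 to 11064570) had 1231 ± 125 and 789 ± 81.5, a difference of -0.29 log2 with a model error of 0.21. The probe nearest the start (11054534 to 11054593) had 113 ± 24.9 and 71.8 ± 20.6, was above background at passage 5 only and gives no fold. So both probes with a difference were on the lower side, and their values lay 0.27 log2 apart. Of the 3136 genes with 2 probes above background on both arrays, 44.6% had values at least that far apart. Of all measured genes, 12.1% had a difference as low as the -0.57 log2 of Gata6 or lower.

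Epithelial markers of gut and pancreas, tissues that share Gata6, were lower at passage 20. Of 14 such markers 9 were above background at passage 5 and 6 at passage 20, 8 of the 9 were at least 2-fold lower, and the summed level was 402 and 105. The secreted lectins Reg1 (at least 218-fold) and Reg3b (110-fold), guanylin (Guca2a, 12.3-fold) and trefoil factor 3 (Tff3, at least 7.47-fold) had the largest differences, while Cdx1, Pdx1, Ptf1a, Muc2 and Sox2 were on neither array. The gut factor gene Cdx2 was above background on both, with levels of 4.32 and 3.11, and was 2.32-fold lower at passage 20. Vil1, the measured marker within 2-fold, had levels of 5.67 and 5.45. Of 12 mesothelial markers 7 and 4 were above background (summed levels 367 and 366). These sums came mostly from the mesothelin gene Msln and from Krt19, which is also a biliary marker. Msln had levels of 7.31 and 7.79 and was 0.48 log2 higher at passage 20. Krt19 had levels of 7.67 and 7.15 and differed by -0.52 log2. Among dimmer markers, Upk3b was lower by at least 4.34-fold and the Wilms tumour factor gene Wt1 by at least 2.02-fold. Upk1b, Alcam and Bnc1 differed by -0.18, -0.64 and -0.40 log2, the last as a bound. The part of the cells of either marker list in the Gata6 difference was not tested.

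Tbx3 was clearly detected on both arrays and within 2-fold. The probe at chr5:120134473-120134532 had a signal of 21843 ± 2184 at passage 5 and 13180 ± 1318 at passage 20. The difference of -0.38 log2 (model error 0.20) is 1.30-fold lower at passage 20, and 17.3% of measured genes had one as low or lower. A second probe, designed on a cDNA clone and placed at chr5:120122741-120122800, had 136 ± 26.8 and 98.7 ± 22.7 and was above background at passage 5 only. The ratio of these signals is 1.09-fold lower, with a model error of 0.44 log2, and is no strict limit.

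Cebpa was not detected, while its relatives Cebpb, Cebpd and Cebpg were. The zipper probe of Cebpa shown above had 25.3 ± 25.3 at passage 5 and 22.5 ± 22.4 at passage 20. Its other probe, at chr7:35906517-35906576, had 23.2 ± 23.1 and 20.2 ± 20.1. All 4 values are surrogates, each about as large as its error, so Cebpa RNA was below what the array can report at both passages.

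Cebpb had nearly equal levels on both arrays by both probes. The zipper probe had 1542 ± 156 and 1168 ± 119, a difference of -0.05 log2. The probe near the end of the messenger RNA, at chr2:167515847-167515905, had 10302 ± 1030 and 7781 ± 778, a difference of -0.06 log2. The raw signals were lower at passage 20 in step with the 75th percentile of that array. The model error of each difference was 0.21 and 0.20, so neither differs from 0 beyond it. The probes differ by 0.0043 log2, and 98.9% of genes with 2 such probes had values at least as far apart.

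Cebpd, which cytokines and growth arrest induce in many cells, had the lowest difference among the members measured on both arrays. Its single probe, at chr16:15888459-15888518, had a signal of 17865 ± 1787 at passage 5 and 8606 ± 861 at passage 20. This is 1.63-fold lower at passage 20, or -0.71 log2 with a model error of 0.20. Of all measured genes 9.33% had a difference as low or lower. Cebpd and Gata2 were the 2 members beyond 1.5-fold, a limit that 22.2% of measured genes passed. With the arrays centred on the median, Cebpd came to -1.02 log2 and so passed 2-fold.

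Cebpg was the member on the higher side at passage 20, by all 3 of its probes. From the start of the transcript to its end, the zipper probe had 727 ± 76.0 and 701 ± 72.7, a difference of 0.29 log2 (model error 0.21). The next, at chr7:35832751-35832810, had 554 ± 62.0 and 634 ± 67.9, a difference of 0.54 (0.22). The last, at chr7:35831917-35831976, had 299 ± 37.0 and 396 ± 44.0, a difference of 0.75 (0.24). The zipper probe, brightest of the 3, gives the gene as 1.23-fold higher, and the mean over probes is 0.53 ± 0.23 log2 (SD, n = 3 probes of the same arrays). The probes span 0.46 log2, and 51.5% of the 917 genes with 3 such probes spanned as much or more. Centring on the median turned the value of the zipper probe to -0.02 log2, with the other probes at 0.23 and 0.44.

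**Figure D2:**
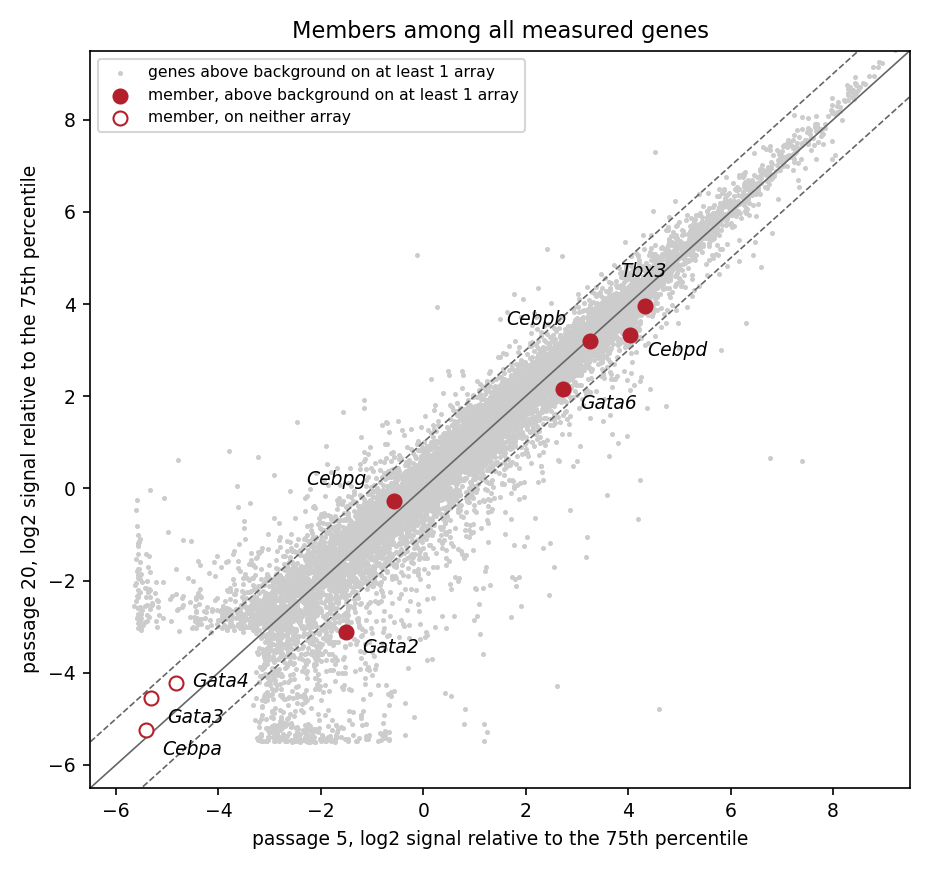
Level at passage 20 (y axis) against passage 5 (x axis), both log2 signal relative to the 75th percentile, for all genes above background on at least 1 array (grey) and the 9 members (red, open where above background on neither array); the solid line marks equal levels and dashed lines a 2-fold difference. Gata2 lies outside the dashed lines and the other 5 filled members lie between them.

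Scaling by 1 value per array moves all differences by the same amount and so bears on members near 0, whereas quantile and loess normalization move genes unequally. The median over all measured genes was 0.07 log2 as reported, -0.15 when the arrays were scaled to external spike-in RNA and -0.24 with median centring. Relative to the median of all genes, the differences as reported were -0.64 for Gata6, -0.45 for Tbx3, -0.13 for Cebpb, -0.78 for Cebpd and 0.22 for Cebpg. Over 11 alternative processings Gata6 ran from -0.88 to -0.29, Tbx3 from -0.69 to -0.25, Cebpb from -0.37 to -0.05 and Cebpd from -1.02 to -0.70. Over 10 that give it a value Gata2 ran from -1.92 to -0.87. Cebpg ran from -0.02 to 0.53 and was negative in 1 of 11.

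**Figure D3:**
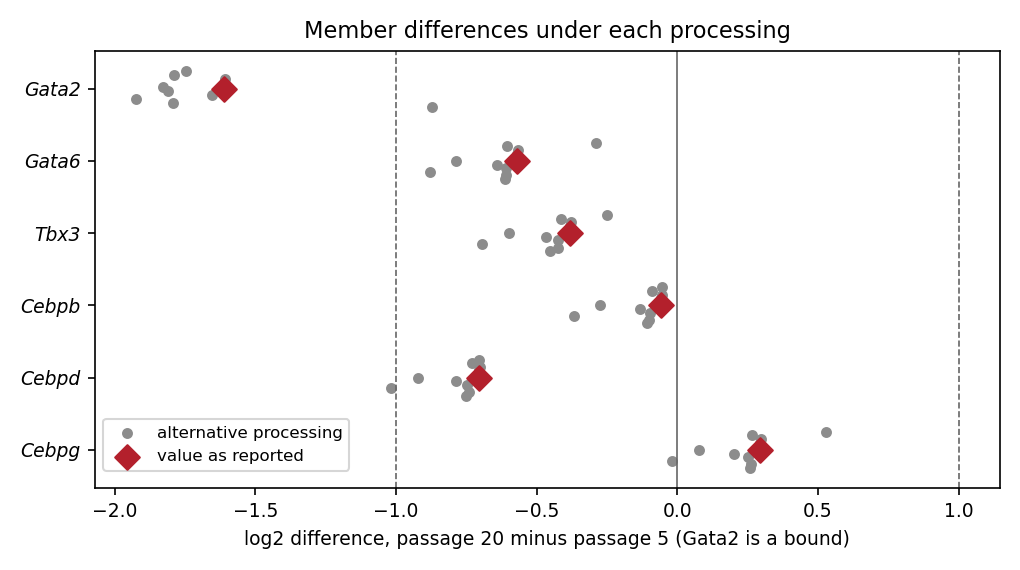
Log2 difference, passage 20 minus passage 5 (x axis), of the 6 measured members (y axis) as reported (red diamonds) and under each alternative processing that gives a value (grey points); the solid line marks 0 and dashed lines 2-fold. Gata2, given as a bound, runs from -1.92 to -0.87, and Cebpg is the member whose points lie on both sides of 0.

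The partners and relatives of these factors were taken from lists, whose counts past 2-fold stand beside 3.26% higher and 5.74% lower among all measured genes. Of 20 other GATA genes and cofactors, 13 were measured, 2 passed 2-fold on the higher side and 0 on the lower, and the median was 0.03 log2 against 0.07 over all genes. Gata1 and Gata5 were above background on neither array. Zfpm2 (FOG2), a cofactor that binds GATA factors, had a level of -1.68 at passage 5 and 0.45 at passage 20 and was 4.39-fold higher, by 1 of its 3 probes. Trps1, an atypical GATA repressor, had a bound of at least 2.90-fold higher from its brightest probe, while its measured probes ran from -0.28 to 1.54 log2. Mbd3 and Ldb1 differed by -0.88 and -0.74 log2. Of 16 other T-box genes 4 were measured. Tbx2, the closest relative of Tbx3, had a level of -1.50 at passage 5 and -2.98 at passage 20 and was 2.78-fold lower, the 1 list member past 2-fold.

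The list of C/EBP relatives, zipper partners and regulators had a median on the lower side at passage 20. It includes genes of proteins without a leucine zipper, such as Crebbp, Ep300, Trib1, Celf1, Eif4ebp1 and Cop1. Of 18 measured members 2 were at least 2-fold lower and 1 higher, or 16.7% against 9.0% of all measured genes, and the median was -0.36 log2. The split was 6 lower and 0 higher with median centring and 6 and 1 with spike-in scaling. That median was negative in all 11 alternatives, from -0.67 to -0.14. Ddit3 (CHOP), an inhibitory partner of C/EBP proteins, had levels of 1.26 and -0.51 and was 3.40-fold lower. Atf3 was 2.42-fold lower, and Atf4 and Atf5, with which C/EBP gamma can pair, differed by -0.88 and -0.94 log2. Fos was 2.33-fold higher. Cebpg and its partners Atf4 and Atf5 therefore lay on opposite sides of 0 in the values as reported, though Cebpg turned to -0.02 with median centring.

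Genes described as targets of these factors passed 2-fold in 21.1% (GATA4 or GATA6), 18.2% (C/EBP alpha) and 12.5% (Tbx3) of the measured list members, against 9.0% of all measured genes. Of 30 targets of GATA4 or GATA6, 19 were measured, 2 were higher and 2 lower (median 0.02 log2). Trefoil factor 1 (Tff1) was 2.89-fold higher, and Lgr5 was 2.24-fold higher by 1 probe with its other at -0.73 log2. The fatty acid binding protein genes Fabp1 and Fabp2 were above background at passage 5 only. Fabp1 was at least 2.12-fold lower at passage 20. For Fabp2 the ratio of the signals was 2.61-fold lower and is no strict limit. Of 28 hepatic metabolic targets of C/EBP alpha on the array, 17 were above background on neither array, among them Alb, Ttr, Cps1, Tat, Arg1 and Fbp1. Of the 11 measured ones 1 was higher (Apob, 2.08-fold) and 1 lower (Ppargc1a, 3.13-fold), with a median of -0.28 log2. Of 20 genes linked to Tbx3, 16 were measured and 2 were higher, the osteopontin gene Spp1 (6.83-fold) and the E-cadherin gene Cdh1 (2.89-fold). The others were within 2-fold, with a list median of -0.08 log2, and Krt19 and Wnt11 differed by -0.52 log2 each, the latter as a bound.

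Of 30 acute phase and inflammatory targets of C/EBP beta and delta, 19 were above background on neither array, Hp, Lcn2, Orm1, Saa3 and Il6 among them. Of the 11 measured, 5 were at least 2-fold higher and 1 lower, or 54.5% against 9.0% of all measured genes, and the median was 1.00 log2. The chemokine Cxcl1 was 9.36-fold higher, the interleukin 1 receptor antagonist Il1rn 4.40-fold by 1 of its 2 probes, and the fibrinogen chain Fgb 3.90-fold. The other fibrinogen chain genes, Fga and Fgg, were above background on neither array. Socs3, the feedback inhibitor of cytokine receptors, was 3.86-fold lower by its brightest probe, but its other probe was at 0.22 log2. With no filter on dim probes, which lets in the other 19 genes, the list median was 0.19 against 0.15 over all genes, so the excess of the median went from 0.93 to 0.04 log2. Without that filter 11 of the 30 were at least 2-fold higher and 2 lower, against 1286 and 1286 of 20054 genes. These counts include genes dim on both arrays. In the other alternatives the list median ran from 0.69 to 1.04. Over the same arrays Cebpb differed by -0.06 and Cebpd by -0.71 log2, as given above. Macrophage markers, which share Cd14 with this list, had 4 of 14 above background at passage 5 and 2 at passage 20 (summed levels 4.30 and 9.65), with Adgre1, Ptprc, Clec4f and Marco on neither. The higher sum came from Cd14, which was 2.67-fold higher, while Csf1r and Lyz2 were above background at passage 5 only. Their part was not tested.

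Signalling that induces Cebpb and Cebpd had 21 measured genes of 25 on the array, with 0 higher, 2 lower and a median of 0.02 log2. The kinase gene Tyk2 was 3.41-fold lower and Socs3 was lower as given above, while Rps6ka1 differed by 0.89 log2 and Pim1 by at least -0.86. Over all 8 lists, 109 distinct genes outside the members were measured, of which 13 were at least 2-fold higher and 8 lower, or 19.3% against 9.0% of all measured genes. That split depended on the scaling, being 9 and 17 with median centring, 10 and 16 with spike-in scaling and 11 and 14 with loess. The members and lists were chosen with knowledge of earlier results of these data, so the counts describe them and set none of them apart.

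**Figure D4:**
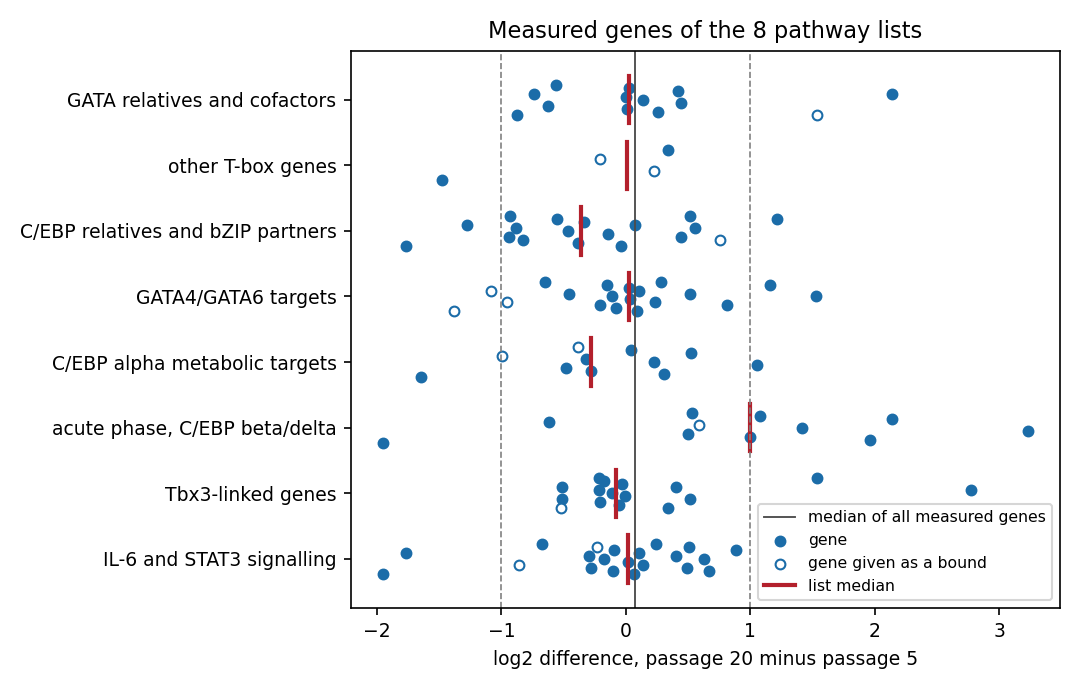
Log2 difference, passage 20 minus passage 5 (x axis), of each measured gene of the 8 lists (y axis); open circles are bounds, red bars list medians, the grey line the median of all measured genes (0.07) and dashed lines 2-fold. The acute phase list has its median at 1.00 and the list of C/EBP relatives and partners at -0.36, and the other medians lie between -0.28 and 0.03.

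The cells carried liver progenitor markers at both passages. Of 16 hepatoblast markers 12 were above background at passage 5 and 11 at passage 20, while Alb, Dlk1, Foxa1 and Igf2 were on neither array. The summed levels of 737 and 756 came mostly from the keratin genes Krt8 and Krt18, which other epithelia share. Gpc3 was at least 9.49-fold lower, Lin28b 3.32-fold by 1 of 4 probes and Epcam 2.24-fold, while Cdh1 was higher as given above. The hepatoblast factor Prox1 was 2.02-fold higher by 1 of 3 probes. Its level of -3.11 at passage 5 was near the lowest above background there, -3.32. Of 12 mature hepatocyte markers on the array 2 and 0 were above background, and of 12 biliary markers 10 and 9. Of 10 urothelial and basal markers, tissues that carry Gata3, 3 were above background on each array (summed levels 1.13 and 0.96).

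Measured neighbours of the members on the chromosome were all within 2-fold. The nearest gene with a probe on each side, in the order of the RefSeq table of GRCm38.p6, gave 16 distinct genes besides the members. Of these 7 were measured, and the 0 that passed 2-fold compare with 9.0% of all measured genes. Beside Gata2, Rpn1 differed by 0.33 log2. Beside Gata6, Mib1 differed by 0.30 and Rbbp8 by -0.09. Beside Cebpd, Mzt2 differed by 0.00 and Spidr by 0.56. Cebpg and Cebpa are themselves neighbours on chromosome 7, the former measured on both arrays and the latter on neither, and Pepd on the other side of Cebpg differed by -0.12. The antisense gene Tbx3os2 beside Tbx3 was above background on neither array.

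Upstream sequence was at hand from RefSeq (GRCm38.p6) for 6 start sites of Gata2 (2 sites), Gata3, Cebpa, Cebpb and Cebpg. In the 250 bases before each, CCAAT on either strand (ATTGG on the other) was found at 2 of 6, against 33.8% of 32851 windows of the same length. This is near the share over all windows and does not set the members apart. The sites were 1 of Gata2 and that of Cebpg, shown with the match in capitals, while the other Gata2 site had no match.
Gata2, second start site, chr6:88198414-88198663 (plus strand): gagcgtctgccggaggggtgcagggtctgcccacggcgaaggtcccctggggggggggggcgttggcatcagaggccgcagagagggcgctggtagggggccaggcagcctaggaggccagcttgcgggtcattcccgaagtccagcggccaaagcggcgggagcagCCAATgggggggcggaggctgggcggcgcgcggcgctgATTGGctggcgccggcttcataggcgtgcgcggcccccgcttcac
Cebpg, chr7:35056567-35056816 (minus strand): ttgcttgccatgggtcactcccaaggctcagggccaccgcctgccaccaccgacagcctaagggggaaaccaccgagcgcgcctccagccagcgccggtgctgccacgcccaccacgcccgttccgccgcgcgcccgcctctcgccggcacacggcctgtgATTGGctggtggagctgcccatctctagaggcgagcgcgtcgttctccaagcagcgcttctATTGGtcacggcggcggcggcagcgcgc
The matches begin 83 and 45 bases before the start for Gata2 and 89 and 28 for Cebpg. The letters AGATAA or AGATAG or TGATAA or TGATAG for GATA factors were searched on both strands and are in 0 of 6 windows, against 26.5% of all. The C/EBP letters TTGCGCAA, TTGCACAA and TTGTGCAA (1.06% of all) and the T-box letters TCACACCT (1.12%) are in 0 of 6 as well. TATAAA is in the Cebpa window and in 12.4% of all. These are matches of letters in a short window, and the arrays do not measure binding.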

How the data were processed

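Spot intensity values were made by the authors with Agilent Feature Extraction 10.7.3.1 from Cy3-labelled RNA, per the file headers. They are background-subtracted and detrended, with surrogate values where the signal is within noise. Probe coordinates are mm9, per the file headers. The deposited value table holds log2 values with equal medians (6.31), read as quantile normalized (the method: not given in the sources used here), and correlates with the log2 signal at r = 0.99987 and 0.99986.

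Control spots and 132 flagged spots were left out (0 of the members). Log2 signals were averaged per probe and each array's 75th percentile was subtracted. A probe counted as well above background where most of its spots were. A gene took its brightest probe, and 2-fold counted as different. Genes were named through RefSeq accessions (27643 probes). The alternatives (limma 3.58.1 for normexp, with an offset of 50) were background correction, scaling, the filter on dim probes, flagged spots, the authors' values, the threshold and the mean over probes. The members, lists and naming rule (all members, up to 4 largest differences per list, nearest neighbours) were chosen with earlier results of these data known. The genes named as above background on neither array are examples from the lists. The scaling and the 2-fold limit were tested on simulated data for probes above background on both arrays. The bounds and the choice of the brightest probe were not part of that test.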

Additional observations from a re-analysis of the deposited data

How the results depend on the processing

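The count of 1 member gene past 2-fold was 0 with normexp background correction and 0 under a filter that asks for signal above background at both passages, where Gata2 has no value. It was 2 with median centring, which adds Cebpd. At 1.5-fold 2 genes passed and at 4-fold 0. The count of 2 probes became 1 with normexp, 0 with both arrays above background, 4 at 1.5-fold and 0 at 4-fold. The count of 21 list genes became 44 with no filter on dim probes, 41 at 1.5-fold and 4 at 4-fold. The other alternatives kept these counts within 1.5 times: quantile normalization, the 75th percentile over detected probes, loess, spike-in scaling, flagged spots kept and the authors' value table for all of them, and the mean over probes for both gene counts. Among all genes past 2-fold the share on the higher side was 36.3%, and it was 14.6% with median centring, 19.2% with spike-in scaling, 22.3% with loess and 50.0% with no filter. Signal over background limits Gata2 at passage 20 and Gata3, Gata4 and Cebpa at both passages. No paired analysis was possible because each passage has 1 array.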
